A study of Homo sapiens with 6 samples.

Results

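Condensin subunits and the topoisomerase II enzymes are the proteins that fold and disentangle chromosomes, and their transcripts were compared after knockdown of the translation initiation factor EIF1. The 10 genes were chosen by their names: SMC2 and SMC4, which are shared by both condensins, NCAPD2, NCAPG and NCAPH of condensin I, NCAPD3, NCAPG2 and NCAPH2 of condensin II, and the topoisomerases TOP2A and TOP2B. Each matched 1 row, so that 10 of the 30618 genes in the count table were followed, and all 10 passed the filter on low counts that left 16749 genes for testing. The cells were ARPE-19, an established human retinal pigment epithelial line. The NC group had received a non-targeting control siRNA and the siEIF1 group an siRNA against EIF1 (1 sequence in the methods), and the cells of both groups were kept in 50 mM glucose as a model of diabetic retinopathy. Each group held 3 libraries, described in the methods as independent biological replicates and sequenced together. Cells in normal glucose were not analysed here, and the siRNA acts on a whole culture, so the values are averages over all cells of a dish.

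Condensins are ring-shaped complexes built on an SMC2-SMC4 heterodimer, a pair of long coiled-coil ATPases. A kleisin subunit (NCAPH or NCAPH2) closes the ring, and a pair of HEAT-repeat subunits (NCAPD2 and NCAPG, or NCAPD3 and NCAPG2) binds DNA and the kleisin. Condensin II is nuclear throughout the cell cycle and starts compaction in prophase, whereas condensin I reaches the chromosomes after nuclear envelope breakdown. Type II topoisomerases cut both strands of a duplex and pass another duplex through the break. TOP2A is made mostly in proliferating cells and resolves sister chromatids in mitosis, while TOP2B is also made in non-dividing cells, where it acts at promoters and chromatin loop anchors.

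The libraries held between 26499929 and 31431479 counts. EIF1 was at an FPKM (fragments scaled by transcript length and library depth) of 281.08 to 294.35 in the NC libraries and of 22.68 to 24.28 in the siEIF1 libraries, and its log2 fold change was -3.58 (standard error, SE, 0.0566, edgeR quasi-likelihood test, adjusted p = 2.4e-17). A log2 fold change is that of the siEIF1 over the NC group, and a gene was said to rise or fall at an adjusted p under 0.05. Of 10 listed markers of retinal pigment epithelium, 9 had a row, and their FPKM summed to between 522.7 and 541.5 in the NC and between 565.4 and 611.4 in the siEIF1 libraries. Of the 8 that could be tested, 3 rose, against 10.5% of all tested genes, and 5 did not pass the test. Most of the sum was the keratins KRT18 and KRT8, which rose by 0.25 and 0.24 on the log2 scale. The retinoid-binding RLBP1 also rose, by 1.55, but from a low level. Its FPKM was 0.17 to 0.27 in the NC and 0.62 to 0.73 in the siEIF1 libraries. BEST1 was at 60.54 to 70.79 in the NC and at 38.79 to 62.06 in the siEIF1 libraries, with a log2 fold change of -0.32 that did not pass the test. MITF (-0.04), PMEL (-0.0018), OTX2 (0.10) and SERPINF1 (0.19) did not pass it either. OTX2 was at 17.51 or above in all 6 libraries, whereas the pigment enzyme TYR was at most at 0.02, and RPE65 was not analysed here. The endothelial PECAM1 and VWF and the glial GFAP summed to an FPKM of at most 0.06 in any library.

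Of the 10 genes, 8 fell in the siEIF1 group, against 10.7% of all tested genes, and 1 rose, against 10.5% (9 in either direction, against 21.3%). The genes that fell were NCAPH, TOP2A, NCAPG, SMC4, NCAPG2, SMC2, NCAPD3 and NCAPH2, in order of size, and the gene that rose was TOP2B. NCAPD2 did not pass the test. In counts scaled to library depth (CPM) the siEIF1 libraries lay wholly below the NC libraries for the same 8 genes, where 18.9% of all tested genes did so, and wholly above them for TOP2B, where 18.2% did. NCAPG, NCAPH and TOP2A also fell to less than 0.5 of the NC level, the limit used in the study, which 1.32% of all tested genes passed downward. None of the 10 passed the upward limit of a fold of 2, which 0.418% of all tested genes did. The median log2 fold change was -0.69 over the 10 genes and 0.0033 over all tested genes.

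**Figure D1:**
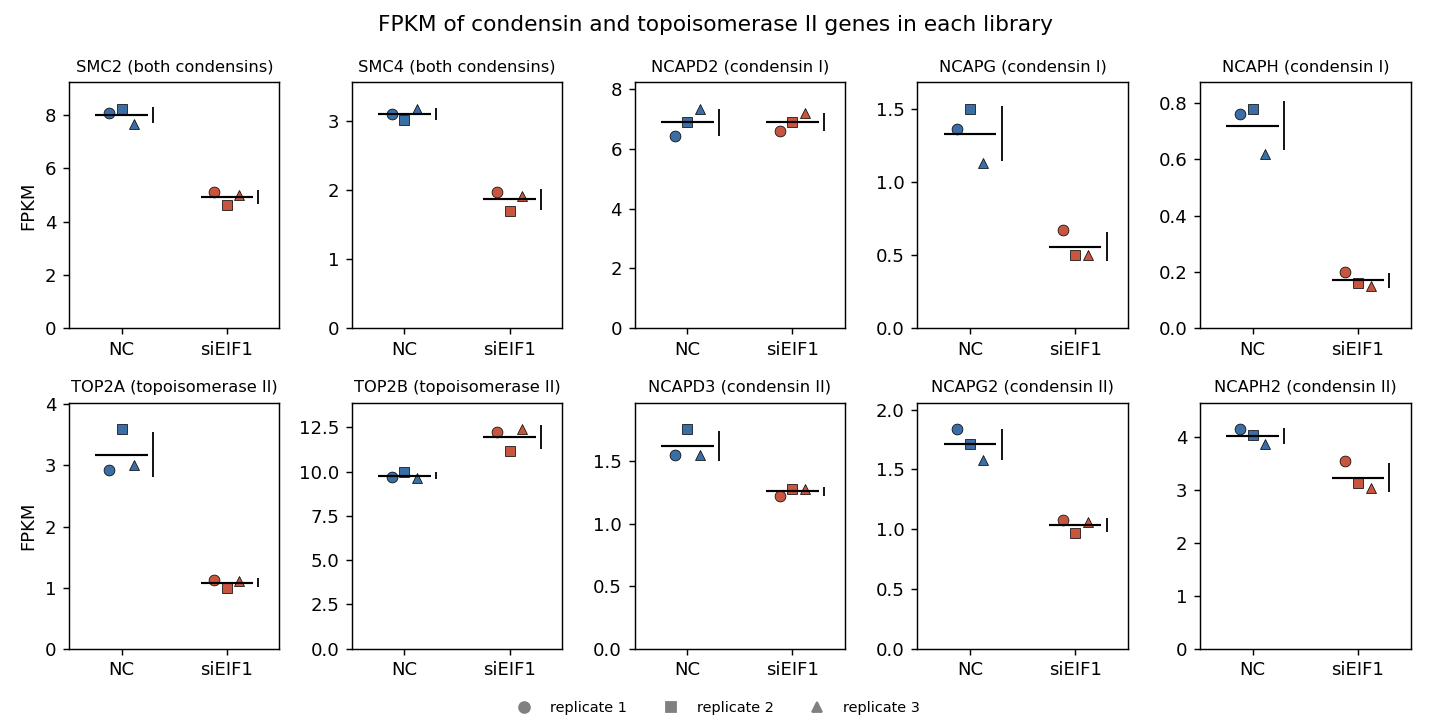
FPKM (y axis, from 0) of each gene in the 3 NC (blue) and 3 siEIF1 (red) libraries; marker shapes give the replicate number, horizontal bars the group mean and vertical bars ± 1 SD. The groups are apart for 9 genes and overlap for NCAPD2, at 6.44 to 7.34 in NC and 6.60 to 7.19 in siEIF1.

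Both SMC subunits, on which either condensin depends, fell by a similar amount. SMC2 had an FPKM of 8.09, 8.24 and 7.65 in NC replicates 1 to 3 and of 5.11, 4.63 and 5.02 in siEIF1 replicates 1 to 3. The highest siEIF1 value was below the lowest NC value, and the log2 fold change was -0.68 (SE 0.0569, edgeR, adjusted p = 2.06e-07). SMC4 had an FPKM of 3.11, 3.01 and 3.18 in the NC and of 1.98, 1.70 and 1.92 in the siEIF1 libraries. The groups were again apart, and the log2 fold change was -0.71 (SE 0.0678, edgeR, adjusted p = 9.63e-07). SMC2 and SMC4 thus stood at 62.4% and 61.0% of their NC levels. The FPKM of SMC2 was 2.58 ± 0.167 times that of SMC4 in the NC group and 2.64 ± 0.0746 times after knockdown (SD, n = 3), a difference within the spread of the replicates. This multiple depends on the transcript length assumed, and it was 1.76 before and 1.81 after knockdown with counts divided by the length of the canonical transcripts.

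The 3 subunits particular to condensin I went separate ways. NCAPH, its kleisin, fell the most of the 10 genes. It had 161, 180 and 139 counts in the NC and 50, 38 and 35 in the siEIF1 libraries, or an FPKM of 0.76, 0.78 and 0.62 against 0.20, 0.16 and 0.15. The highest siEIF1 library was thus at 0.20 and the lowest NC library at 0.62, and the log2 fold change was -2.08 (SE 0.174, edgeR, adjusted p = 2.14e-07), or 23.7% of the NC level. Of the 16749 tested genes, 11 had a lower log2 fold change than NCAPH.

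NCAPG, a HEAT-repeat subunit of condensin I, had an FPKM of 1.36, 1.50 and 1.13 in the NC and of 0.67, 0.50 and 0.50 in the siEIF1 libraries. Its groups did not overlap, with siEIF1 replicate 1 above the other two siEIF1 libraries, and the log2 fold change was -1.23 (SE 0.151, edgeR, adjusted p = 1.63e-05). NCAPD2, the other HEAT-repeat subunit of the same complex, had an FPKM of 6.44, 6.89 and 7.34 in the NC and of 6.60, 6.91 and 7.19 in the siEIF1 libraries. Its values overlapped throughout, and the log2 fold change was 0.02 (SE 0.0572, edgeR, adjusted p = 0.834). It turned to -0.02 without NC replicate 1. The 3 condensin I genes thus did not keep their proportions. The FPKM of NCAPH was 0.105 ± 0.0181 of that of NCAPD2 in the NC libraries and 0.0248 ± 0.00492 after knockdown (SD, n = 3), and NCAPG went from 0.194 ± 0.0351 to 0.0811 ± 0.0177 (SD, n = 3) of NCAPD2, without overlap between the groups in either case. NCAPH also declined relative to NCAPG, from 0.542 ± 0.0201 to 0.306 ± 0.012 (SD, n = 3).

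The 3 subunits particular to condensin II all fell, each by less than a factor of 2. NCAPG2, the HEAT-repeat counterpart of NCAPG, had an FPKM of 1.84, 1.71 and 1.58 in the NC and of 1.08, 0.97 and 1.06 in the siEIF1 libraries. The groups were apart, and the log2 fold change of -0.70 (SE 0.0909, edgeR, adjusted p = 2.99e-05) was close to those of SMC2 and SMC4. NCAPD3, the counterpart of NCAPD2, had an FPKM of 1.55, 1.76 and 1.55 in the NC and of 1.22, 1.28 and 1.28 in the siEIF1 libraries. The siEIF1 libraries lay below and close together, and the log2 fold change was -0.35 (SE 0.0768, edgeR, adjusted p = 0.00364). NCAPH2, the condensin II kleisin, had an FPKM of 4.15, 4.04 and 3.86 in the NC and of 3.54, 3.12 and 3.03 in the siEIF1 libraries, and the log2 fold change was -0.29 (SE 0.0779, edgeR, adjusted p = 0.0123). The NCAPH2 groups were separated by a narrow gap, and without NC replicate 1 the fall of -0.27 no longer passed the test (edgeR, adjusted p = 0.0504).

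TOP2A and TOP2B moved in opposite directions. TOP2A had an FPKM of 2.93, 3.6 and 3.0 in the NC and of 1.13, 0.99 and 1.11 in the siEIF1 libraries. NC replicate 2 was the highest library, and all siEIF1 libraries lay far below the NC range, and the log2 fold change was -1.54 (SE 0.0937, edgeR, adjusted p = 9.73e-09), or 34.4% of the NC level. TOP2B, the most abundant of the 10 genes per length, had an FPKM of 9.70, 9.98 and 9.64 in the NC and of 12.26, 11.16 and 12.42 in the siEIF1 libraries. Here the order of the groups was reversed without overlap, and the log2 fold change was 0.31 (SE 0.0498, edgeR, adjusted p = 2.59e-04), a rise of 23.8%.

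**Figure D2:**
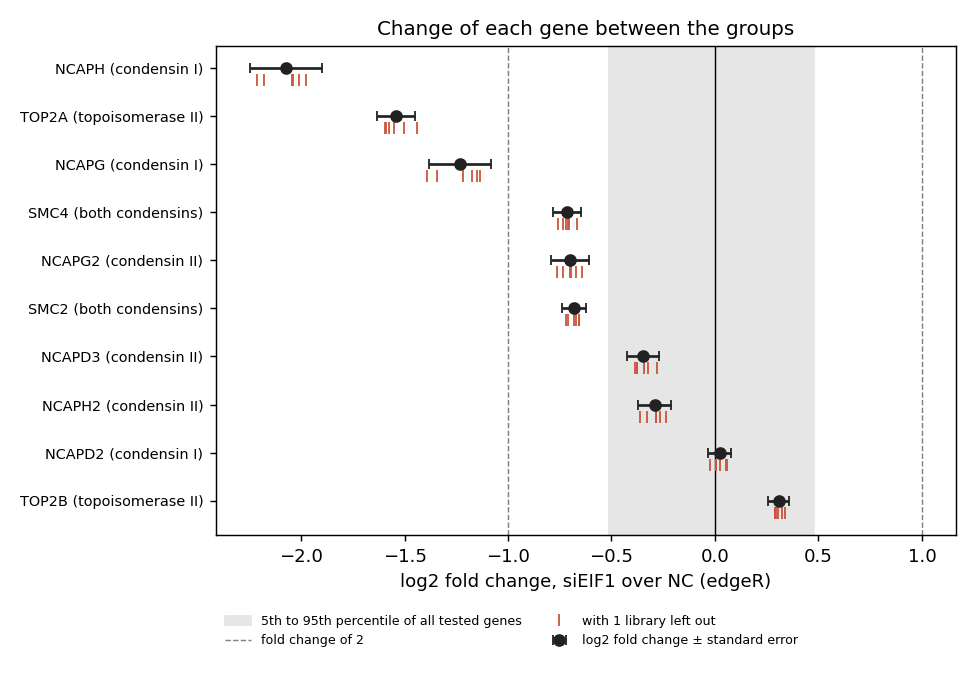
log2 fold change (x axis) of each gene with its SE (black), and the values with each library left out in turn (red ticks). The grey band holds the 5th to 95th percentile of all tested genes, from -0.51 to 0.48. NCAPH, TOP2A and NCAPG lie beyond the dashed line of a fold change of 2, and NCAPD2 lies at 0.

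Profiles were compared among the tested genes whose mean count reached 50. The profile over the 6 libraries that was nearest to that of TOP2A was the one of UBE2C, the ubiquitin-conjugating enzyme of the anaphase-promoting complex. Their centred log2 CPM values differed by a root mean square of 0.0422, against 0.0693 for the next gene, and UBE2C had a log2 fold change of -1.58. The profiles nearest to that of TOP2B were those of SERINC2 (0.0194), SIRT5 (0.0216) and CD164 (0.0218), which rose by 0.32, 0.30 and 0.32 on the log2 scale. With 6 libraries in 2 groups, this measure rests on the group difference as well as on the spread between replicates.

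Each condensin I subunit has a condensin II counterpart, and TOP2A has TOP2B, so that 4 ratios within a library could be compared without scaling the libraries to each other. The log2 ratio of TOP2A to TOP2B counts was -1.72, -1.46 and -1.67 in the NC and -3.43, -3.48 and -3.47 in the siEIF1 libraries. It was lower in every siEIF1 library, by 1.84 in the mean (SE 0.08), a decline of 3.59-fold. The log2 ratio of NCAPH to NCAPH2 was -1.90, -1.81 and -2.07 in the NC and -3.59, -3.74 and -3.79 in the siEIF1 libraries. This kleisin ratio declined 3.43-fold, with a difference of -1.78 (SE 0.0981). The log2 ratio of NCAPG to NCAPG2 was -0.99, -0.74 and -1.03 in the NC and -1.24, -1.51 and -1.62 in the siEIF1 libraries, with a smaller difference of -0.54 (SE 0.145).

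The last pair moved the other way. The log2 ratio of NCAPD2 to NCAPD3 was 1.29, 1.21 and 1.48 in the NC and 1.68, 1.67 and 1.73 in the siEIF1 libraries, higher in every siEIF1 library by 0.37 in the mean (SE 0.0829). Of the 4 ratios, 3 thus moved from condensin I or TOP2A toward condensin II or TOP2B, and 1 moved toward condensin I. For each of them the exact permutation test (two-sided) gave p = 0.1, or 0.1 after Benjamini-Hochberg adjustment over the 4 ratios, which is the smallest p that 3 libraries against 3 allow. The median log2 fold change was -1.23 over the 3 condensin I genes and -0.35 over the 3 condensin II genes, but the condensin I genes ran from -2.08 to 0.02 and enclosed all the condensin II genes.

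**Figure D3:**
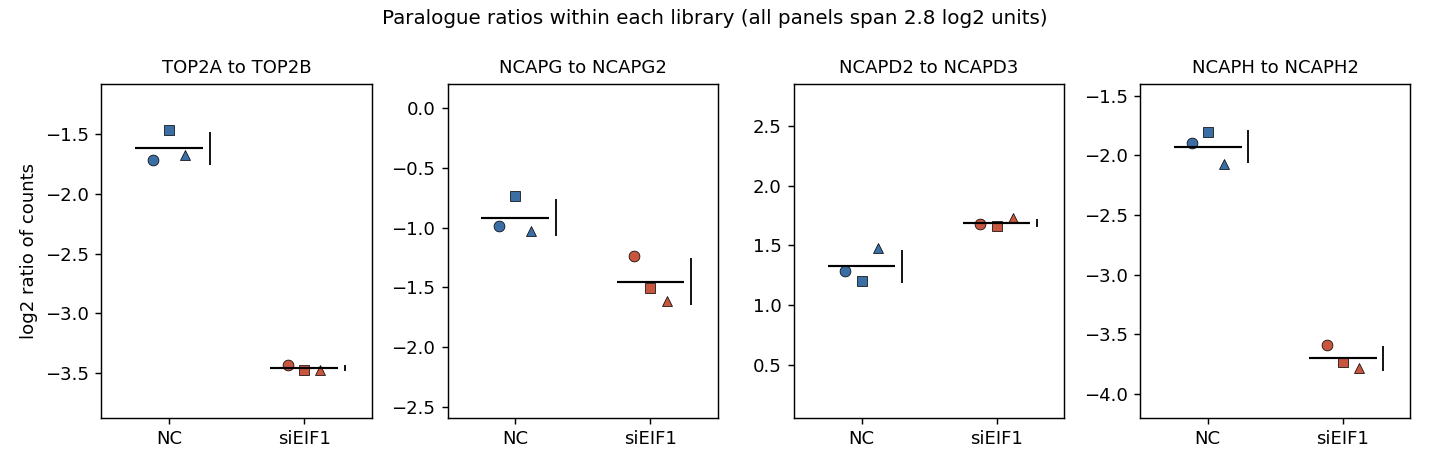
log2 ratio of counts (y axis) of a gene to its counterpart in the NC (blue) and siEIF1 (red) libraries, with group means and ± 1 SD; all panels have the same span. The TOP2A to TOP2B and NCAPH to NCAPH2 ratios are lower by 1.84 and 1.78, and the NCAPD2 to NCAPD3 ratio is higher by 0.37.

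In FPKM, TOP2A made up 24.5% ± 1.78 of the TOP2A and TOP2B sum in the NC group and 8.26% ± 0.154 after knockdown (SD, n = 3). NCAPH made up 15.2% ± 1.2 and 4.98% ± 0.328 (SD, n = 3) of the kleisin sum, so that NCAPH2 was the major kleisin transcript in all 6 libraries. The reverse held for the larger HEAT-repeat subunits, where NCAPD2 made up 80.9% ± 1.49 of its sum with NCAPD3 of the NC group and 84.6% ± 0.291 after knockdown (SD, n = 3). NCAPG held 43.6% ± 2.7 of the sum with NCAPG2 before and 34.8% ± 3.19 after knockdown (SD, n = 3). With counts divided by canonical transcript length, the NCAPG share was 31.9% before and 24.4% after knockdown, so its size, but not its decline, depended on the length used.

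Ordered by mean FPKM in the NC group, the genes ran from TOP2B (9.77) through SMC2 (7.99), NCAPD2 (6.89), NCAPH2 (4.02), TOP2A (3.18), SMC4 (3.10), NCAPG2 (1.71), NCAPD3 (1.62) and NCAPG (1.33) to NCAPH (0.72). The libraries of TOP2A and SMC4 overlapped, as did those of NCAPG2 and NCAPD3, and the other neighbours in this order did not. In the siEIF1 group NCAPD2 (6.90) stood above SMC2 (4.92), and TOP2A (1.08) dropped below NCAPD3 (1.26) to overlap with NCAPG2 (1.04). This order depends on the length used. Per canonical transcript length (counts per kilobase and depth), NCAPD2 was not below SMC2 in the NC group, with means of 11.4 and 10.7 and overlapping libraries. TOP2A was then wholly below NCAPG2 in the siEIF1 group, with means of 1.48 and 2.23, and below NCAPD3 (2.30) as in FPKM.

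The genes lie on 9 chromosomes of GRCh38, and their annotated spans are NCAPH at chr2:96335766-96377091, SMC4 at chr3:160399274-160434954, TOP2B at chr3:25597978-25664909, NCAPG at chr4:17810979-17844865, NCAPG2 at chr7:158631169-158704804, SMC2 at chr9:104094260-104141419, NCAPD3 at chr11:134150113-134225504, NCAPD2 at chr12:6493356-6531955, TOP2A at chr17:40388525-40417896 and NCAPH2 at chr22:50508224-50524780. In the GENCODE release 44 annotation, 5 of them share exon bases with 7 tested genes on the opposite strand. NCAPD3 shares 1889 with JAM3 and 249 with VPS26B, NCAPG shares 1634 with LCORL, SMC4 shares 1553 with TRIM59 and 243 with IFT80, NCAPH2 shares 857 with SCO2, and NCAPD2 shares 383 with MRPL51. The methods describe strand-specific libraries made with dUTP, whereas the labels describe adaptor ligation without naming strand, and the strand setting of the counting is not given in the sources used here, so reads over these bases could have been assigned to either gene. The 7 partners had log2 fold changes from -0.23 (TRIM59) to 0.17 (SCO2). Of them 0 passed an adjusted p of 0.05 with edgeR, against 21.3% of all tested genes in either direction, and 0 with DESeq2. At an unadjusted p under 0.05 with edgeR there were 3, and the share of all tested genes at that limit was not taken. MRPL51 had a mean count of 3677, which is 232% of that of NCAPD2. By the same measure VPS26B and JAM3 stood at 253% and 199% of NCAPD3, and LCORL at 210% of NCAPG. IFT80 and TRIM59 stood at 105% and 61.6% of SMC4, and SCO2 at 71.5% of NCAPH2.

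Genes of mitosis often carry a CHR element, the hexamer TTTGAA, near their start, where the DREAM and MMB complexes act together with CCAAT boxes. RefSeq promoter windows of 300 bases (GRCh38.p14, 250 bases before to 50 after the start) were found for 9 of the 10 genes, with no entry for NCAPH2, and the window nearest the canonical transcript start was searched on both strands. That start can lie inside the annotated span of a gene, as for SMC2 and NCAPD3. TTTGAA was present in 8 of the 9 windows, against 15.2% of all 35116 windows, and CCAAT in 5 of 9, against 34.6%. The E2F octamers TTTCCCGC, TTTCGCGC, TTTGCCGC and TTTGGCGC were present in 1 of 9, that of NCAPD3, against 3.31%. No TTTGAA match overlapped a match to another motif. The stretches of 30 bases around the TTTGAA matches are shown to let their settings be compared, in the direction of transcription, with the hexamer or its reverse complement TTCAAA in capitals and the number of bases from the start to its first base given.
TOP2A, 194 upstream, chr17:40418073-40418102, minus strand: cgagtggtgcctTTTGAAgcctctctagtc
TOP2A, 151 upstream, chr17:40418030-40418059, minus strand: ctgattggtttaTTCAAAcaaaccccggcc
NCAPG, 35 upstream, chr4:17810932-17810961, plus strand: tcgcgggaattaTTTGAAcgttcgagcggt
SMC4, 75 upstream, chr3:160399563-160399592, plus strand: gccgcactttttTTCAAAttagtggatccc
SMC2, 3 upstream, chr9:104094294-104094323, plus strand: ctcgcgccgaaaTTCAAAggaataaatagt
NCAPG2, 35 downstream, chr7:158704755-158704784, minus strand: gcgccggcgggtgcgTTTGAAtctggtccg
NCAPD3, 3 upstream, chr11:134223953-134223982, minus strand: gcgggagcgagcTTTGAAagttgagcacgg
NCAPD2, 145 upstream, chr12:6493945-6493974, plus strand: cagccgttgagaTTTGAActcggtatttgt
TOP2B, 227 upstream, chr3:25665117-25665146, minus strand: ccctgctctcccTTCAAAtggaaaacccac

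The matches were not restricted to the genes that fell. NCAPH, with the lowest log2 fold change of the 10 (-2.08), held no TTTGAA and 1 CCAAT, while NCAPD2 (0.02) and TOP2B (0.31) each held TTTGAA together with 4 and 2 CCAAT boxes. TOP2A held 2 TTTGAA and 4 CCAAT matches, and NCAPG, SMC2, SMC4 and NCAPG2 held TTTGAA without CCAAT. The matches of SMC2 and NCAPD3 span the start itself, and that of NCAPG2 lies downstream of it. A match of these letters is a description and not a binding site.

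**Figure D4:**
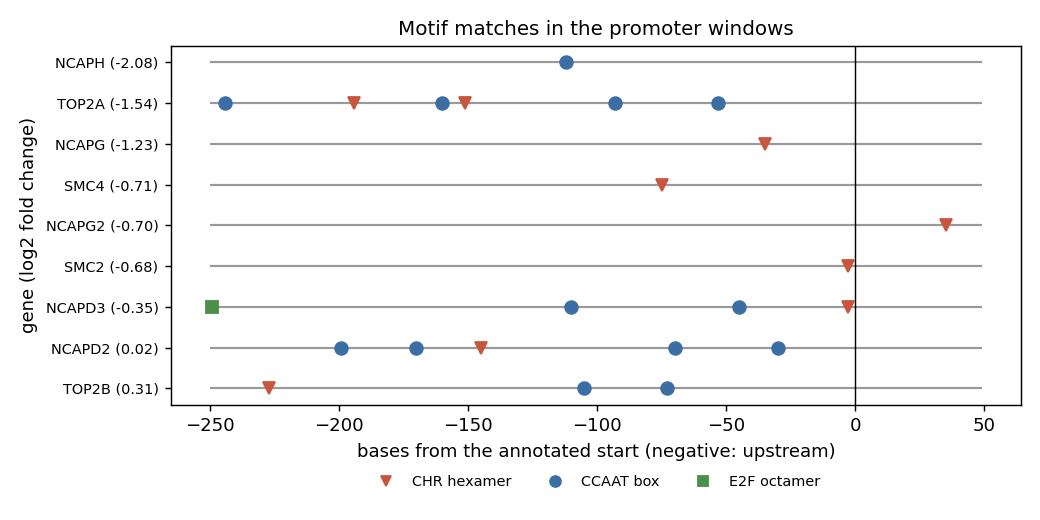
Positions of the TTTGAA (CHR, red triangles), CCAAT (blue circles) and E2F (green squares) matches in the promoter window of 9 genes, as bases from the annotated start (x axis), with genes ordered by log2 fold change. TTTGAA is present for all but NCAPH, including NCAPD2 (0.02) and TOP2B (0.31).

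Genes that act on condensin or bind mitotic chromosomes mostly fell as well. Of 16 listed genes, 12 fell and 1 rose, against 10.7% and 10.5% of all tested genes, and their median log2 fold change was -0.52. CDK1, the kinase that phosphorylates condensin at mitotic entry, had a log2 fold change of -1.66 (edgeR, adjusted p = 6.78e-09), its partner CCNB1 (cyclin B1) of -1.01, and MKI67, the Ki-67 protein that coats mitotic chromosomes, of -1.60. CSNK2A2, a catalytic subunit of casein kinase 2, which restrains condensin I in interphase, rose by 0.34 (edgeR, adjusted p = 4.11e-05). CSNK2A1, also a catalytic subunit of that kinase, did not pass the test (log2 fold change -0.04, SE 0.0525, edgeR, adjusted p = 0.614). MCPH1, the inhibitor of condensin II, had FPKM values of 1.32, 1.46 and 1.50 in the NC and of 1.46, 1.31 and 1.45 in the siEIF1 libraries (log2 fold change 2.08e-04, SE 0.0751).

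Among 8 other topoisomerases and their partners, 3 fell (against 10.7% of all tested genes) and 1 rose, a share close to the 10.5% of all tested genes, with a median of -0.26. The genes that fell were BLM (-1.59), the helicase that unwinds recombination intermediates, RMI2 (-0.90), a subunit of the same dissolution complex, and TOPBP1 (-0.52), a scaffold of replication and checkpoint signalling. The mitochondrial topoisomerase TOP1MT rose by 0.28 (edgeR, adjusted p = 0.00304). The topoisomerases TOP1 (-0.07), TOP3A (-0.19) and TOP3B (-0.02) and the partner RMI1 (-0.33) did not pass the test. Of 8 genes that repair TOP2 trapped on DNA, 3 fell, against 10.7% of all tested genes, with a median of -0.15. Those that fell were MRE11 (-0.40), NBN (-0.28) and RBBP8 (-0.28), which process protein-blocked DNA ends. The other 5 did not pass the test, namely SPRTN (-0.20), TDP1 (-0.09), ZNF451 (0.06), RAD50 (0.08) and TDP2 (0.09). RAD50 had only 39 to 75 counts in a library. Its SE of 0.23, against 0.0676 for MRE11 and 0.066 for NBN, was wide enough to miss a fall like that of NBN.

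Of 12 listed genes of the other SMC complexes, cohesin and SMC5-SMC6, and SMCHD1, 3 fell, against 10.7% of all tested genes, 9 did not pass the test, and the median was -0.06. The 3 genes were the cohesin subunits RAD21 (-0.21), SMC3 (-0.22) and SMC1A (-0.24). Each estimate was smaller than that of any condensin gene that fell. SMC1A (SE 0.0724) differed from NCAPH2 (-0.29, SE 0.0779) by less than either SE. The count (edgeR) was 0 without siEIF1 replicate 2, where 4 genes had an unadjusted p under 0.05, and 1 without NC replicate 1, where 3 had. With all libraries 5 genes had an unadjusted p under 0.05, and DESeq2 called 3. Shares of all tested genes in the smaller fits or at an unadjusted p were not taken. The count of condensin regulators that fell also went from 12 to 9 without siEIF1 replicate 2, and stayed at 12 without NC replicate 1.

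All 10 listed markers of proliferating cells fell, against 10.7% of all tested genes, with a median of -1.38 and the largest falls in E2F1 (-1.84), RRM2 (-1.73) and MYBL2 (-1.66). Their FPKM summed to between 119.5 and 127.1 in the NC and between 84.35 and 90.14 in the siEIF1 libraries, most of it PCNA and TYMS, which fell by 0.28 and 0.22 on the log2 scale. The part of these markers in the changes of the condensin and TOP2A genes was not tested, and in bulk RNA fewer cycling cells and less RNA per cell cannot be told apart.

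**Figure D5:**
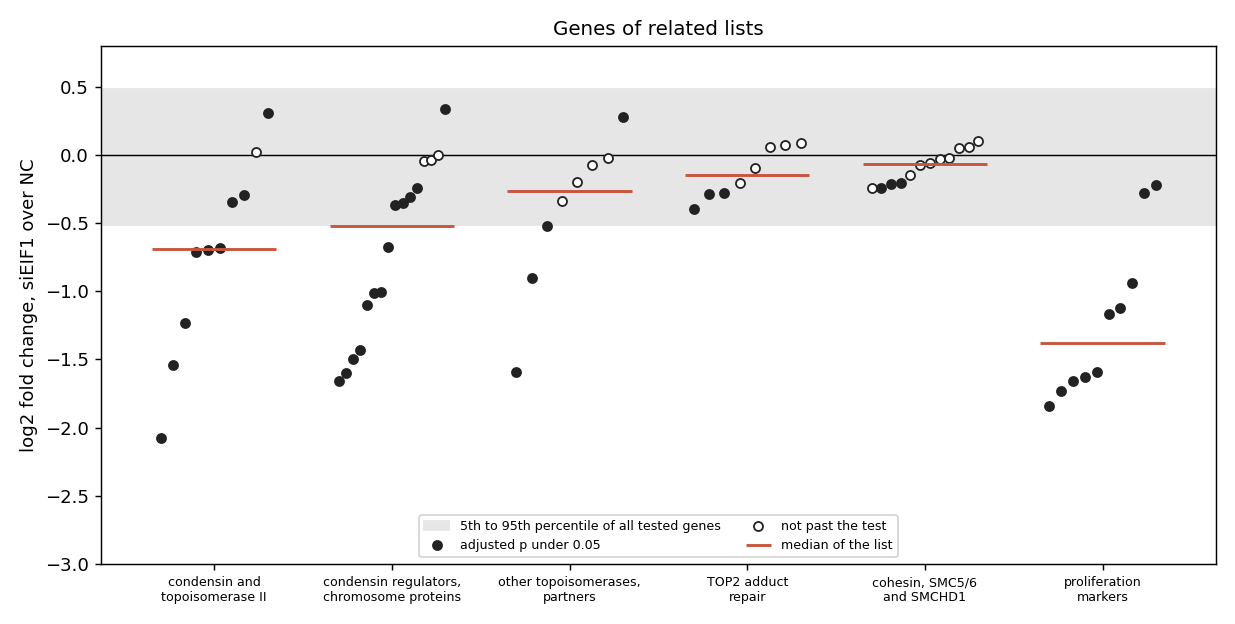
log2 fold change (y axis) of every tested gene of 6 lists, sorted within each list; filled points passed an adjusted p of 0.05, red bars are list medians and the grey band holds the 5th to 95th percentile of all tested genes. The medians run from -1.38 for the proliferation markers to -0.06 for cohesin, SMC5-SMC6 and SMCHD1, with -0.69 for the condensin and topoisomerase II genes.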

How the data were processed

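RNA-seq of 6 ARPE-19 libraries was analysed, 3 NC and 3 siEIF1, grouped by sample title. The authors trimmed the reads with FASTX-Toolkit 0.0.13, aligned them to GRCh38 with HISAT2, and deposited raw counts of uniquely mapped reads per gene. The authors also deposited rounded FPKM values for 30275 of the 30618 genes. For 8 of the 10 genes, the length implied by the FPKM is proportional to all annotated exons joined (implied over GENCODE 44 length, 1.22 to 1.23), and for NCAPD3 and TOP2B it is not, so FPKM levels between genes depend on that annotation. The counting program is not given in the sources used here. No per-sample column was left unmatched (0).

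Counts were fitted over all genes with edgeR 4.0.16 in R 4.3.3 (TMM, filterByExpr, robust quasi-likelihood test, Benjamini-Hochberg adjustment), without a replicate term. The standard error is the log2 fold change over the root of the F statistic. Depth was between 26499929 and 31431479 counts, and genes with few counts, such as NCAPH, have wider errors. Libraries of a group differed by more than sampling noise (chi-square per degree of freedom 2.87 to 13.0). Ratios used counts plus 0.5 and an exact permutation test in scipy 1.17.1. The alternatives were other normalizations and filters, DESeq2 1.42.0, limma 3.58.1 on log2(FPKM + 1) and log2(FPKM + 0.1), a replicate block, other fold limits and leaving out each library. The genes, lists, motifs and tests were chosen with earlier results of these data known. Named are EIF1, the 10 genes, cell markers, overlapping genes, up to 3 genes a list with the smallest p in each direction, and the nearest profiles to TOP2A (the first of 3) and TOP2B. Levels per canonical transcript length were added, and MCPH1, PCNA, TYMS and CSNK2A1 were named, after their values were seen. So were the listed topoisomerase, partner and TOP2 adduct repair genes that did not pass the test.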

Additional observations from a re-analysis of the deposited data

How the results depend on the processing

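Over 15 alternatives, or 13 where low FPKM excluded NCAPG and NCAPH, the direction and the side of the threshold were kept by EIF1, SMC2, SMC4, NCAPG, NCAPG2, NCAPH, TOP2A and TOP2B. NCAPD3 missed the threshold with limma on log2(FPKM + 1) without a filter, at -0.21 on that scale, as did NCAPH2, at -0.25. With 1 library left out, NCAPH2 ran from -0.36 to -0.23 and missed it without NC replicate 1 (-0.27), and NCAPD2 ran from -0.0219 to 0.0598, reversed at -0.0219 without NC replicate 1. The number of genes that fell was 3, and that of genes that rose 0, when tested against a fold of 1.5 with glmTreat. The number past both limits downward was 6 with a fold limit of 1.5 and 1 with limma on FPKM at either pseudocount, which understates low genes and, with the filter, leaves out NCAPG and NCAPH. Shares of all tested genes under these alternatives were not taken, so the counts of this section have no background beside them. The 4 ratios kept their direction under FPKM, no pseudocount, the replicate block and each library left out (TOP2A to TOP2B from -1.89 to -1.77, NCAPH to NCAPH2 from -1.85 to -1.72). For the lists, medians were taken with limma on log2(FPKM + 1), log2(FPKM + 0.1) and log2(FPKM + 1) without a filter. In that order they were -0.27, -0.34 and -0.33 for the condensin regulators and -0.85, -1.14 and -0.76 for the proliferation markers. With the filter, the first 2 medians covered only 12 of the 16 condensin regulators and 8 of the 10 proliferation markers. They are thus not medians of the same genes as in the main test. The first setting gave -0.16 for the other topoisomerases and partners, over 7 of the 8 genes. With limma and no FPKM filter, 0 genes of the other topoisomerases and partners rose (1 at an unadjusted p under 0.05). In that fit 1 gene of TOP2 adduct repair and 0 of the other SMC complexes (3 at an unadjusted p) fell. Without a filter on low counts, 5 genes of the other topoisomerases and partners fell, and 5 fell with the replicate block. With 1 library left out, between 0 and 4 genes of the other SMC complexes fell. The part of the smaller gene sets in these shifts was not tested, nor was any other cause except the pseudocount. Same-numbered libraries had correlations of 0.149, 0.0946 and 0.128 between their deviations from the group means, and each library correlated best with its own number, which is a hint from the data only. The replicate block changed no call of the 10 genes. Of the 10 genes, NCAPH had the lowest depth, with 35 to 50 counts in the siEIF1 libraries. Some listed genes had fewer, such as RLBP1 with 11 to 17 counts in the NC libraries and BLM with 29 to 45 in the siEIF1 libraries.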
